A study of Mus musculus with 30 samples.

Results

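The 42 genes described here encode the parts of the autophagy machinery that act before and after the lipidation of LC3: the kinase and lipid kinase complexes that start an autophagosome, the proteins that feed lipid to it, the receptors that bind its cargo, and the tethers and SNAREs that fuse it with a lysosome. They were chosen by gene symbol and not by their values, though earlier results of these data were known. All 42 were found by Ensembl identifier among the 46078 genes of the count table, and all 42 were among the 13880 genes that passed the filter on low counts. The conjugation genes, Atg7 among them, were not members.

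RNA was sequenced from microglia, macrophages that reside in brain and spinal cord, sorted from C57BL/6 mice with a gate for live CD11b+ CD45int Ly6G- cells, for eYFP+ cells, or for both. KO animals carried Atg7fl/fl with Cx3cr1CreERT, and WT animals carried Atg7wt/wt with Cx3cr1CreERT2. The labels give 3 tamoxifen doses of 4 mg at intervals of 48 h for the libraries of every group, old included. The Cx3cr1 promoter drives Cre in microglia and in other Cx3cr1-expressing myeloid cells. Experimental autoimmune encephalomyelitis (EAE), an immune attack on myelin that models aspects of multiple sclerosis, was induced 18 or more days after tamoxifen with rmMOG (residues 1 to 125) and pertussis toxin. Naive mice had no EAE. Old mice were labelled old with wild-type Atg7, and the labels do not state their Cre allele or their age in weeks; KO and WT mice were labelled young. Female and male tissue was pooled 1:1 for each library. There were 4 libraries each of naive KO, naive old and naive WT, 4 of day 21 KO and 3 of day 21 WT, and 4 of day 35 KO, 3 of day 35 old and 4 of day 35 WT. No label states that libraries of a group came from separate animals, so p-values measure the spread between these libraries.

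The libraries held 4712803 to 11034565 counts, with a median of 6769302. Levels are given as CPM, counts scaled to a common library size. The summed level of 8 microglia markers was 9123 to 9712 CPM in day 21 KO libraries and 8483 to 28603 CPM in all other libraries, and none of the 8 was at 0 in any group. Atg7 read counts cover every exon and cannot show the loss of one: Atg7 was at 20.2 ± 8.62 CPM in naive KO against 31.6 ± 6.32 CPM in naive WT libraries (SD, n = 4 each), and it was not lower in KO libraries at day 21 (32.8 ± 2.74 CPM in KO, 23.2 ± 3.03 CPM in WT) or at day 35 (32.5 ± 1.54 CPM in KO, 22.6 ± 1.41 CPM in WT). The groups are therefore named by their labels only. The library labelled day 35 WT 3 carries a WT title but a KO entry in another label field, and it was kept as WT. The library labelled day 35 old 1 stood apart, with 32193 CPM of 12 neutrophil markers against 690 and 2466 CPM in the other day 35 old libraries. Naive KO 4 also stood apart, with 27.4 CPM of 8 border macrophage markers against 219.9 or more CPM in all other naive libraries. Naive WT 3 had 16779 CPM of neutrophil markers and 1763 CPM of 9 monocyte markers, where other naive WT libraries had at most 9350 and 601 CPM. Its microglia markers summed to 18664 CPM, against 26288 CPM or more in those libraries. Mitochondrial transcripts took 6.73% of its counts, against at most 3.39% in those libraries. In bulk RNA, fewer cells of a type and less RNA per cell cannot be told apart.

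Autophagy begins when the ULK1 complex (a kinase with its scaffold Rb1cc1 and the adaptors Atg13 and Atg101) activates a lipid kinase complex built on Becn1 and Pik3c3. The lipid it makes recruits WIPI proteins, and Atg2 proteins with the scramblases Atg9a, Vmp1 and Tmem41b supply the growing membrane with lipid. Receptors such as Sqstm1 link ubiquitinated proteins or damaged mitochondria to LC3 on that membrane, and the HOPS tether with Stx17, Snap29 and Vamp8 joins the finished autophagosome to a lysosome. In microglia this route serves the breakdown of engulfed material, myelin debris included, beside that of the cell's own contents.

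Promoter windows from 250 bases before to 50 bases after the annotated start were found for 34 of the 42 genes in RefSeq (GRCm38.p6). They were searched on both strands for CACGTG, the E-box that TFEB and TFE3 bind in autophagy and lysosome genes, for TGACNNNGC, the core of the antioxidant response element, and for TGACTCA, an AP-1 site. CACGTG was in the windows of 5 of 34 member genes (14.7%) and of 8.09% of all genes: Atg14, Bnip3, Nrbf2, Vps16 and Vps33a. TGACNNNGC was in those of 6 of 34 (17.6%) and of 13.99% of all genes: Atg13, Nrbf2, Tax1bp1, Ulk2, Vmp1 and Vps16. TGACTCA was in none of the 34 and in 5.95% of all genes. A match is a description of these letters and not a binding site. Windows of 4 genes follow, each 5′ to 3′ on the gene's strand with matches in capitals, because the results turn on these genes: Ulk2 and Atg14 fell at day 21 in KO libraries, Vmp1 rose in every EAE comparison, and Sqstm1 rose in KO libraries at day 35. In Ulk2 the capitals mark TGACNNNGC, 17 bases before the start (chr11:61855043-61855342, minus strand). In Atg14 they mark CACGTG, which begins 1 base before the start and runs across it (chr14:47568385-47568684, minus strand). In Vmp1 they mark TGACNNNGC read on the other strand upstream of an annotated start (chr11:86683787-86684086, minus strand). Windows of other annotated Vmp1 starts (chr11:86683474-86683773 and chr11:86671132-86671431), not shown, also hold this motif. The Sqstm1 window (chr11:50210771-50211070, minus strand) holds none of the 3 motifs.
Ulk2: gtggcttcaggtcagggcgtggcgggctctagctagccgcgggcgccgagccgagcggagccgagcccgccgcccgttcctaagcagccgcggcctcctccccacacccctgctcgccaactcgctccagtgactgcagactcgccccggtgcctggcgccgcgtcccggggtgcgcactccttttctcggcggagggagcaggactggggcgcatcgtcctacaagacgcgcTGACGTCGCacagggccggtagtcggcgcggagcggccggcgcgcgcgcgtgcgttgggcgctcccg
Atg14: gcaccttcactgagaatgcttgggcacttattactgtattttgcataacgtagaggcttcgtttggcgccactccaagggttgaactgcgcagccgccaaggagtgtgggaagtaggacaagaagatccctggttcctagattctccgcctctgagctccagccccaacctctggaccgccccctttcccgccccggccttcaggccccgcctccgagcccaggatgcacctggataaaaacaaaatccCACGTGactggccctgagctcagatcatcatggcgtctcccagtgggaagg
Vmp1: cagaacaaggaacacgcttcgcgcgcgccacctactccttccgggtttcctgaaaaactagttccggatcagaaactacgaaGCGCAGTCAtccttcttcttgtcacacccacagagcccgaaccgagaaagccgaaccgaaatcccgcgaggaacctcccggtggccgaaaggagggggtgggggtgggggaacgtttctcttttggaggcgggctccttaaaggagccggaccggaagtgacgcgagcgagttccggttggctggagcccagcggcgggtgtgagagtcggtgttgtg
Sqstm1: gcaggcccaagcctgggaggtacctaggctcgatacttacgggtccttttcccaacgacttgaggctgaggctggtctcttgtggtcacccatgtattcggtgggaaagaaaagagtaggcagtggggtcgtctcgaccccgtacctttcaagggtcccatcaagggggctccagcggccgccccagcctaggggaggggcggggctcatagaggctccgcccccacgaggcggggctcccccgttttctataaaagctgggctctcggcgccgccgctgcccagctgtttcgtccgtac

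Levels differed more between genes than between groups. Per kilobase of exon, Sqstm1 had the highest mean level (58.7 CPM per kb), then Ulk2 (35.6), Vmp1 (26.6), Vps18 (25.6) and Vps33a (23.9). Tmem41b (1.98 CPM per kb), Bnip3 (2.65) and Atg9a (2.78) had the lowest. The highest and lowest of the 8 group means lay within 1.5 times of each other in 25 members, between 1.5 and 2 times in 11, and over 2 times in 6. Those 6 were the receptor Optn (2.99 times), Vmp1 (2.43), the mitophagy kinase Pink1 (2.25), the mitophagy receptor Bnip3l (2.21), the WIPI protein Wipi1 (2.18) and the mitophagy receptor Fundc1 (2.02). The smallest ratio was that of the HOPS subunit Vps33a (1.09 times). A gene on the other strand overlaps 14 members, and 6 overlap a gene on their own strand. Without a stated strand setting, reads of such pairs may be mixed, as for Snap29 with Pi4ka, Atg9a with Ankzf1 and Atg2b with Gskip. Over 16 comparisons between groups, 32 of the 42 members passed the test in at least 1, and Ulk1, Rb1cc1, Pik3r4, Atg2a, Bnip3, Vps11, Vps18, Vps33a, Vamp8 and Plekhm1 in none.

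**Figure D1:**
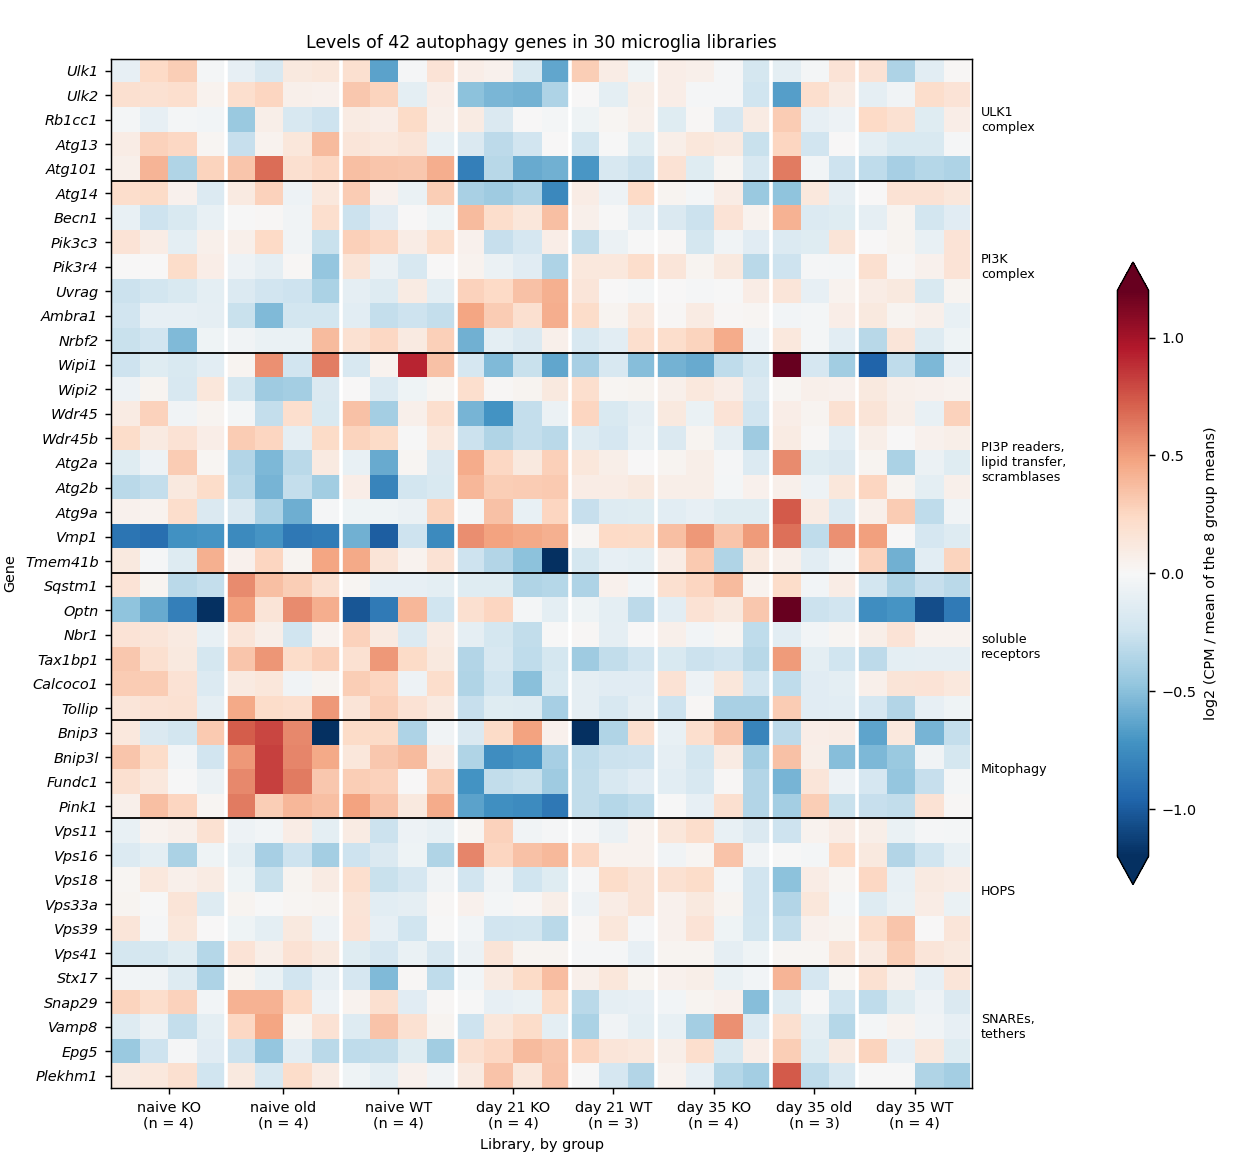
Log2 CPM of each of the 42 genes (rows, grouped by role) relative to that gene's mean over the 8 groups, for the 30 libraries (columns, by group). Every naive library is below the Vmp1 mean, and Optn and Wipi1 are highest in day 35 old 1.

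In naive mice the initiation, receptor and fusion genes did not differ detectably between KO and WT libraries. Of the 42, 0 passed the test in either direction, where 0.288% of all genes tested did (0.238% higher and 0.0504% lower); edgeR gave 1 member an unadjusted p under 0.05, and DESeq2 called 0. The median log2 fold change over the members was -0.0089, and -0.0214 over all genes. Ulk1, the initiating kinase, had 63.1, 79.8, 82.99 and 66.3 CPM in naive KO libraries and 77.04, 43.2, 66.7 and 75.4 CPM in naive WT libraries, and the groups overlapped (log2 fold change 0.15, SE 0.15, edgeR adjusted p = 0.811). Becn1 (-0.043), the scramblase Atg9a (0.0099), the receptors Sqstm1 (-0.018) and Bnip3 (-0.004) and the fusion SNARE Stx17 (0.094) had log2 fold changes near 0. Their 95% intervals were -0.27 to 0.18, -0.32 to 0.34, -0.24 to 0.20, -0.74 to 0.73 and -0.15 to 0.34, in that order. None of the 16 conjugation genes, 20 upstream regulators or 17 further receptors and late-step genes passed the test.

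At day 21 of EAE, 3 initiation and mitophagy genes were lower in KO than in WT libraries and 1 endosomal partner of Becn1 was higher. These 4 of 42 stood beside 19.0% of all genes that passed the test (9.18% higher and 9.86% lower), and the median log2 fold change was -0.0291 over the members and 0.0021 over all genes. Ulk2, the second ULK kinase, had 150.7, 144.9, 143.8 and 163.9 CPM in day 21 KO libraries, against 213.9, 196.2 and 223.1 CPM in day 21 WT libraries (log2 fold change -0.48, SE 0.14, edgeR adjusted p = 0.0124). Every KO library lay below every WT library. Atg14, the subunit that directs the lipid kinase to autophagosome formation, had 25.9, 25.2, 26.1 and 19.9 CPM in KO and 36.01, 32.5 and 39.8 CPM in WT libraries (log2 fold change -0.58, SE 0.14, edgeR adjusted p = 0.00601). Pink1, the kinase that marks damaged mitochondria, had 23.6, 22.1, 21.8 and 20.3 CPM in KO and 29.98, 29.1 and 29.8 CPM in WT libraries (log2 fold change -0.44, SE 0.15, edgeR adjusted p = 0.0424). For both genes, too, the groups did not overlap. Uvrag, which binds Becn1 in place of Atg14 in endosomal complexes, was higher, with 97.04, 94.4, 102.3 and 107.4 CPM in KO and 88.8, 80.5 and 79.01 CPM in WT libraries and no overlap (log2 fold change 0.28, SE 0.087, edgeR adjusted p = 0.0247).

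The day 21 KO minus WT difference of Uvrag was also larger than its naive one. Uvrag had 66.8, 68.9, 70.8 and 74.1 CPM in naive KO libraries and 74.2, 71.8, 85.7 and 73.7 CPM in naive WT libraries, and the interaction passed the test (difference of log2 fold changes 0.40, SE 0.12, edgeR adjusted p = 0.0336); Uvrag was the 1 member of 42 to do so, where 9.68% of all genes did (4.72% with a higher and 4.96% with a lower difference). Becn1 had 90.9, 80.7, 76.9 and 89.8 CPM in day 21 KO and 72.7, 69.4 and 64.9 CPM in day 21 WT libraries without passing the test (log2 fold change 0.30, SE 0.12, edgeR adjusted p = 0.0808). Ulk1 (-0.26), Atg9a (0.32), Sqstm1 (-0.14), Bnip3 (0.49) and Stx17 (0.10) did not pass either. Among upstream regulators, 0 of 20 were higher and 5 lower in day 21 KO libraries, among them the AMPK subunit Prkab1 (-0.57), the folliculin gene Flcn (-0.52) and Tfe3 (-0.32), a transcription factor of autophagy and lysosome genes. Of the 16 conjugation genes 1 rose and 1 fell, and of the 17 further receptors and late-step genes 1 rose and 1, the ER-phagy receptor Sec62 (-0.51), fell.

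Marker levels of other cells differed between the same libraries. Microglia markers summed to 9123 to 9712 CPM in day 21 KO and 16712 to 18957 CPM in day 21 WT libraries, 9 monocyte markers to 2088 to 2875 CPM in KO and 175 to 476 CPM in WT libraries, and border macrophage markers to 229 to 305 CPM in KO and 14.3 to 63.6 CPM in WT libraries. T and NK markers summed to 23.24 to 27.85 CPM in KO and 1.46 to 7.54 CPM in WT libraries. Neuron markers summed to 4.71 to 6.52 CPM in KO and 21.9 to 57.8 CPM in WT libraries. Sums of neutrophil, B and plasma, erythroid, oligodendrocyte and astrocyte markers were also lower in KO libraries, and no range overlapped. Mitochondrial transcripts took 8.35 to 9.12% of counts in KO and 6.41 to 8.26% in WT libraries. The part of these differences in the day 21 KO results was not tested. The 4 calls became 0 without day 21 WT 3 (adjusted p = 0.055 for Atg14 and 0.0682 for Ulk2) and 2 without day 21 WT 2 or day 21 KO 4, and 13 (7 higher, 6 lower) when only these 2 groups were fitted. Uvrag also lost its call without day 21 KO 3, and Pink1 without any of 9 libraries (adjusted p up to 0.117). The Uvrag interaction lost its call without naive KO 1, naive KO 2, naive WT 3 or any of the same 4 day 21 libraries (adjusted p up to 0.104), and the count of members with an interaction became 2 without naive WT 1 and 3 without day 35 old 1.

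**Figure D2:**
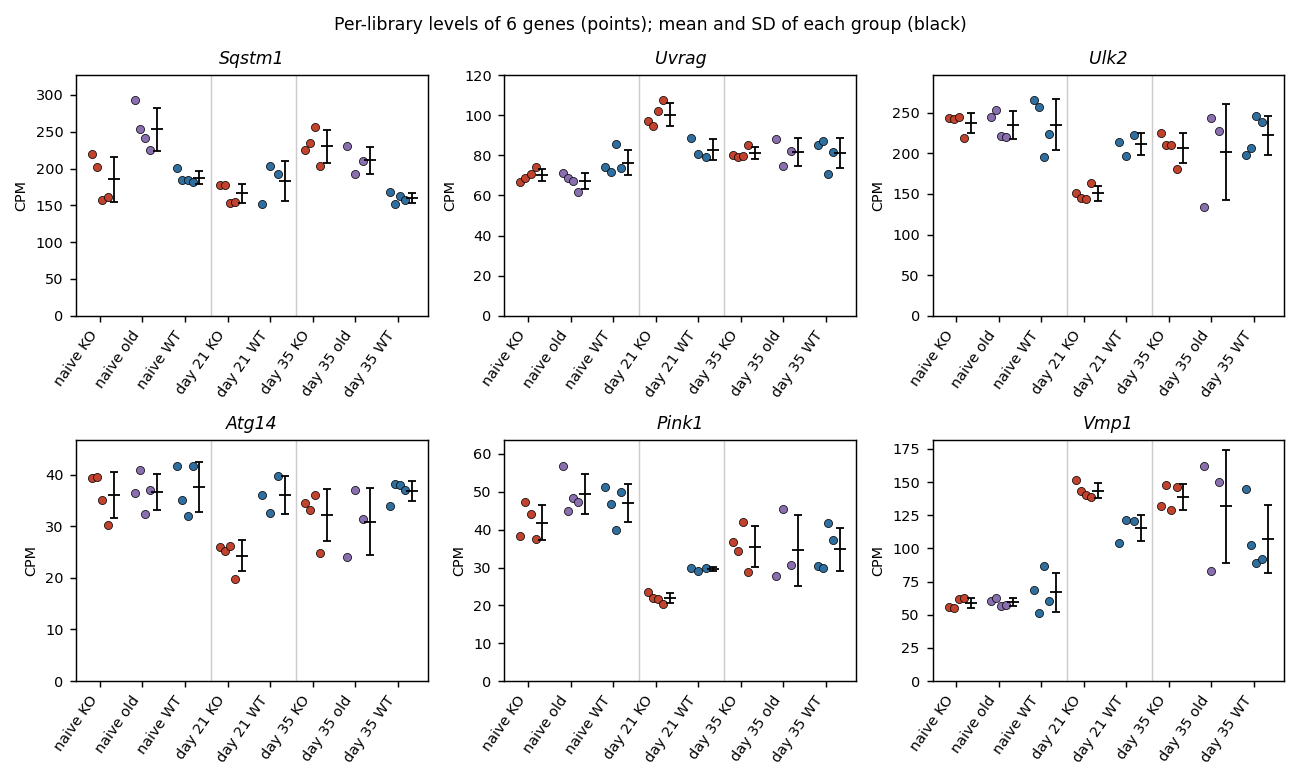
CPM of Sqstm1, Uvrag, Ulk2, Atg14, Pink1 and Vmp1 in each library, by group, with the group mean and SD. Day 21 KO libraries have the lowest Ulk2 and Pink1 means and the highest Uvrag mean, and Sqstm1 is higher in day 35 KO than in day 35 WT libraries.

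At day 35 of EAE, the cargo receptor Sqstm1 (p62), itself an autophagy substrate, was the 1 member of 42 that passed the test between KO and WT libraries in the fit of all groups, where 2.62% of all genes did (1.79% higher and 0.829% lower). It had 225.7, 234.9, 256.8 and 202.8 CPM in day 35 KO libraries, against 168.7, 151.99, 162.3 and 157.2 CPM in day 35 WT libraries, so that the lowest KO library lay above the highest WT library (log2 fold change 0.52, SE 0.11, edgeR adjusted p = 0.0108). At day 21 the groups had overlapped, with 178.1, 177.5, 153.6 and 155.1 CPM in KO and 152.1, 203.7 and 192.1 CPM in WT libraries. The change in the KO minus WT difference between these days passed the test (difference of log2 fold changes 0.66, SE 0.16, edgeR adjusted p = 0.0206), as it did for 2.67% of all genes (1.86% higher and 0.807% lower) and for no other member. The change against naive libraries did not (difference of log2 fold changes 0.54, SE 0.15, edgeR adjusted p = 0.0856), and 0 members and 0.367% of all genes (0.238% higher and 0.130% lower) passed it; edgeR gave 6 members an unadjusted p under 0.05 and DESeq2 called 3, Sqstm1, Nrbf2 and Optn.

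Ulk1 (0.044), Becn1 (0.059), Atg9a (-0.15), Bnip3 (0.28) and Stx17 (-0.07) had log2 fold changes that did not pass the test. Optn, a ubiquitin-binding receptor of mitophagy, had 19.8, 24.3, 23.4 and 26.9 CPM in day 35 KO and 12.9, 13.2, 10.3 and 11.98 CPM in day 35 WT libraries, with no overlap, yet did not pass (log2 fold change 0.96, SE 0.34, edgeR adjusted p = 0.124). It did pass when day 35 old 1, which is in neither group, was left out of the shared estimate of the spread (log2 fold change 0.96, adjusted p = 0.01), with DESeq2 (0.98, adjusted p = 0.0461) and when only these groups were fitted (0.98, adjusted p = 0.00193). The fit without day 35 old 1 also gave 3 members with a KO minus WT difference in the change from naive to day 35, Optn (1.46), Sqstm1 (0.54) and Nrbf2 (0.77). Conjugation genes held 1 higher, Gabarap (0.44), an LC3 relative; upstream regulators held 2 lower, Prkab1 (-0.50) and Tfe3 (-0.30); further receptors and late-step genes held 1 higher, Bcl2 (0.98), which binds Becn1.

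Disease scores were 2.5 to 3 in day 35 KO and 1 to 1.5 in day 35 WT mice, and mitochondrial transcripts took 7.0 to 8.91% of counts in KO and 4.48 to 6.08% in WT libraries. Monocyte markers summed to 957 to 1369 CPM in day 35 KO and 98.9 to 292 CPM in day 35 WT libraries, without overlap. Microglia markers, which overlapped, summed to 11624 to 17623 CPM in KO and 15489 to 23096 CPM in WT libraries. The part of these differences in the Sqstm1 result was not tested. The Sqstm1 call at day 35 was lost without day 35 WT 2 or day 35 KO 3 (adjusted p up to 0.0564) and when day 35 WT 3 was counted as KO, and the interaction was lost without day 21 WT 2 or day 21 WT 3 (adjusted p up to 0.1). The gene Mrnip, on the strand opposite Sqstm1, had group means of 2.1 to 3.9 CPM, and the strand setting of the counting is not given in the sources used here.

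**Figure D3:**
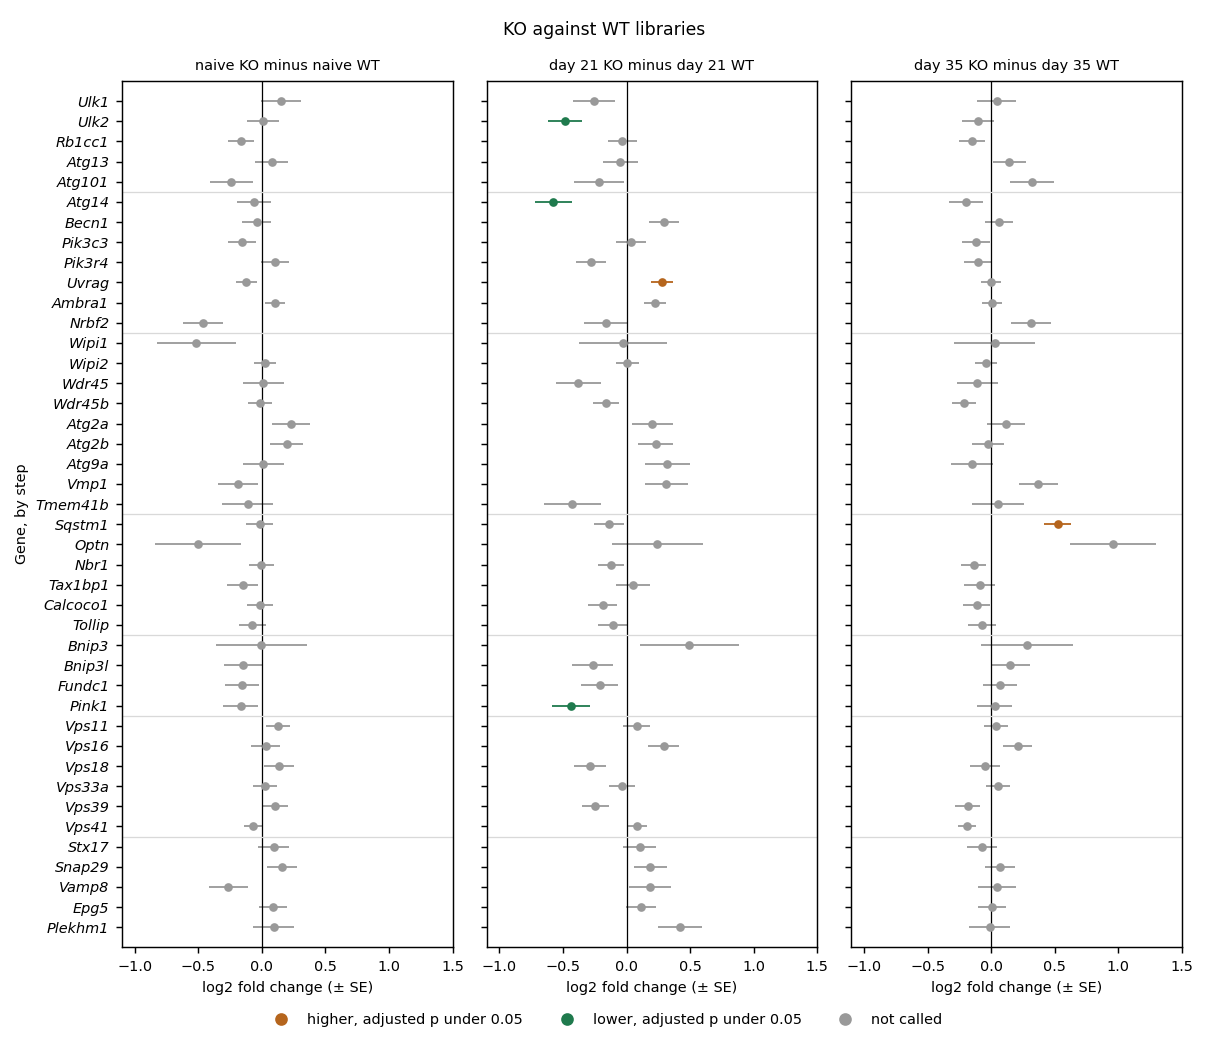
Log2 fold change of each member, KO minus WT, with bars of its SE, in naive, day 21 and day 35 libraries. Brown points passed the test as higher and green points as lower, and grey points did not pass. No naive value passed; at day 21 Uvrag was higher and Ulk2, Atg14 and Pink1 lower, and at day 35 Sqstm1 was higher.

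EAE moved members of every role, and one gene rose in each of the 5 comparisons of an EAE group with its naive group. Vmp1, an endoplasmic reticulum scramblase needed to close autophagosomes off from it, had 151.2, 143.6, 140.5 and 138.4 CPM in day 21 KO, 132.2, 147.6, 128.98 and 146.3 CPM in day 35 KO and 56.05, 54.8, 62.02 and 62.8 CPM in naive KO libraries. It had 162.4, 83.1 and 149.8 CPM in day 35 old, against 60.6, 62.8, 56.6 and 57.5 CPM in naive old libraries. WT values were 104.2, 121.1 and 120.7 CPM at day 21, 144.9, 102.8, 89.1 and 92.1 CPM at day 35 and 68.8, 51.6, 86.6 and 60.4 CPM in naive libraries. No EAE library of any group overlapped its naive group. The log2 fold changes were 1.28 and 1.24 in KO, 1.15 in old, and 0.78 and 0.68 in WT libraries (edgeR adjusted p at most 0.00463), and the call held in every fit that left out 1 library. Reads of Mir21a, which had 0 counts, and of Gm11478, both annotated within Vmp1 on its strand, cannot be separated from its own. The KO comparisons with naive share their naive libraries, as do the WT ones.

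The Becn1 regulator Ambra1 and the lysosome tether Epg5 passed the test as higher in 4 of those 5 comparisons. The receptor Tax1bp1 and the mitophagy genes Bnip3l, Fundc1 and Pink1 passed as lower in 4 of 5. Tax1bp1 did not pass in old at day 35 in the fit of all libraries. Without day 35 old 1 it was lower there (log2 fold change -0.53, edgeR adjusted p = 0.00355). Tollip was then lower there too (-0.49, edgeR adjusted p = 0.00763). No member passed as higher in one comparison and as lower in another, and 11 passed in none. Counts by comparison were 10 higher and 15 lower in KO at day 21 (of all genes 45.2% passed, 22.5% higher and 22.7% lower). They were 5 and 3 in KO at day 35 (21.4% of all genes, 11.6% higher and 9.81% lower) and 8 and 4 in old at day 35 (18.4% of all genes, 10.4% higher and 8.03% lower). In WT they were 3 and 8 at day 21 (21.5% of all genes, 9.51% higher and the rest lower) and 4 and 6 at day 35 (19.1% of all genes, 8.40% higher and 10.7% lower). The median log2 fold changes of the members were -0.15, -0.067, -0.058, -0.1 and -0.038 in that order, and those of all genes 0.011, -0.002, 0.025, -0.007 and -0.0094.

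In the ULK1 complex, Atg101, the stabilising adaptor, had 7.38, 10.4, 8.56 and 8.74 CPM in day 21 KO and 13.6, 17.3, 10.2 and 15.7 CPM in naive KO libraries, which overlapped (log2 fold change -0.70, SE 0.18, edgeR adjusted p = 0.002). It had 8.04, 11.4 and 10.9 CPM at day 21 and 10.6, 9.89, 10.3 and 10.1 CPM at day 35 in WT, against 16.8, 16.4, 16.3 and 17.7 CPM in naive WT libraries, without overlap (log2 fold changes -0.72 and -0.71, edgeR adjusted p = 0.00742 and 0.00612). Ulk2 fell in KO at day 21, to 150.7, 144.9, 143.8 and 163.9 CPM, against 243.4, 241.97, 244.8 and 218.4 CPM in naive KO libraries (log2 fold change -0.65, SE 0.13, edgeR adjusted p = 0.000122). In WT it had 196.2 to 223.1 CPM at day 21 and 195.6 to 265.1 CPM in naive libraries, and did not pass (log2 fold change -0.16, SE 0.14, edgeR adjusted p = 0.438). The difference between these KO and WT changes did not pass either (difference of log2 fold changes -0.50, SE 0.18, edgeR adjusted p = 0.0819). Ulk1 passed in none of the 5.

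In the lipid kinase complex, Becn1 rose in KO at day 21, with 90.9, 80.7, 76.9 and 89.8 CPM against 65.6, 58.7, 61.4 and 65.7 CPM in naive KO libraries (log2 fold change 0.43, SE 0.11, edgeR adjusted p = 0.00217). Uvrag rose there too, with 97.04, 94.4, 102.3 and 107.4 CPM in day 21 KO and 66.8, 68.9, 70.8 and 74.1 CPM in naive KO libraries (log2 fold change 0.52, SE 0.081, edgeR adjusted p = 7.84e-06), while Atg14 fell, with 25.9, 25.2, 26.1 and 19.9 CPM in day 21 KO and 39.3, 39.6, 35.1 and 30.2 CPM in naive KO libraries (log2 fold change -0.57, SE 0.14, edgeR adjusted p = 0.00103). None of the 3 overlapped. Uvrag also rose in old libraries, with 88.3, 74.6 and 82.2 CPM at day 35 and 71.3, 68.5, 67.2 and 61.7 CPM naive (log2 fold change 0.28, SE 0.087, edgeR adjusted p = 0.0252), a call lost without day 35 old 1 (adjusted p = 0.109), day 35 old 3 or naive old 4. Ambra1 had 135.2, 120.6, 111.2 and 132.01 CPM in day 21 KO, against 83.05, 90.9, 91.4 and 90.3 CPM in naive KO libraries (log2 fold change 0.49, SE 0.079, edgeR adjusted p = 1.25e-05). It had 95.3, 96.2 and 102.9 CPM in day 35 old and 80.8, 67.6, 83.6 and 83.9 CPM in naive old libraries (log2 fold change 0.31, SE 0.085, edgeR adjusted p = 0.0124). In WT it had 113.9, 100.01 and 106.5 CPM at day 21, 106.1, 99.7, 101.6 and 91.8 CPM at day 35 and 89.1, 79.98, 81.96 and 80.3 CPM in naive libraries (log2 fold changes 0.37 and 0.27). Ambra1 was thus higher in each EAE library of those 4 comparisons than in its naive group. Pik3c3, the catalytic subunit, fell in WT at day 21, to 36.2, 42.3 and 44.2 CPM, against 54.1, 52.8, 47.3 and 51.2 CPM in naive WT libraries (log2 fold change -0.32, SE 0.12, edgeR adjusted p = 0.0483). This call was lost in 20 of 30 fits that left out 1 library (adjusted p up to 0.226), and with RLE size factors, no filter, only the groups compared or the i5 block. Nrbf2, an Atg14 partner, was higher in KO at day 35, with 13.5, 14.1, 15.9 and 11.2 CPM against 9.68, 9.96, 8.11 and 11.3 CPM in naive KO libraries, which overlapped (log2 fold change 0.49, SE 0.16, edgeR adjusted p = 0.0262). Naive WT libraries had 13.2, 13.8, 12.6 and 14.3 CPM of Nrbf2, above all naive KO ones, though that comparison did not pass the test.

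Among the WIPI, Atg2 and scramblase genes, Wdr45b fell in KO at both days, with 38.6, 35.99, 37.7 and 36.9 CPM at day 21 and 40.9, 47.02, 42.7 and 34.3 CPM at day 35, against 53.7, 49.8, 51.98 and 48.7 CPM in naive KO libraries (log2 fold changes -0.45 and -0.31, edgeR adjusted p = 0.000326 and 0.0197). It also fell in WT at day 21, with 41.5, 40.1 and 43.3 CPM against 55.6, 54.2, 45.9 and 50.5 CPM in naive WT libraries (log2 fold change -0.31, SE 0.10, edgeR adjusted p = 0.0332). All these EAE libraries lay below their naive ones. Atg2b, a lipid transfer protein, rose in KO at day 21, with 94.8, 88.3, 88.95 and 89.3 CPM against 57.5, 59.3, 78.1 and 84.2 CPM in naive KO libraries (log2 fold change 0.37, SE 0.13, edgeR adjusted p = 0.0163). In old libraries it had 74.99, 68.98 and 79.2 CPM at day 35 and 57.5, 48.8, 59.1 and 54 CPM naive (log2 fold change 0.44, SE 0.14, edgeR adjusted p = 0.0251). Wipi2 rose in old libraries, with 49.6, 51.1 and 50.8 CPM at day 35 and 42.3, 36.4, 36.9 and 43.5 CPM naive (log2 fold change 0.34, SE 0.094, edgeR adjusted p = 0.0126). Atg9a, the scramblase carried on vesicles, rose there too, with 26.7, 17.2 and 14.3 CPM at day 35 and 14.2, 12.4, 10.7 and 15.9 CPM naive, which overlapped (log2 fold change 0.54, SE 0.18, edgeR adjusted p = 0.0326). Its call was lost without day 35 old 1 or any of 3 naive old libraries (adjusted p up to 0.338). Ankzf1, which overlaps Atg9a on the other strand, had means of 41.7 CPM in day 35 old and 25.8 CPM in naive old libraries. The part of Ankzf1 reads in the Atg9a result was not tested.

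Among the cargo receptors, Tax1bp1 had 127.1, 139.7 and 145.7 CPM at day 21 and 137.7, 158.1, 158.8 and 158.8 CPM at day 35 in WT libraries, against 194.4, 245.3, 200.9 and 185.3 CPM in naive WT libraries, without overlap (log2 fold changes -0.58 and -0.43). In KO libraries it had 134.2, 149.5, 138.7 and 148.02 CPM at day 21 and 150.5, 142.8, 146.02 and 136.3 CPM at day 35, against 214.9, 195.3, 185.3 and 148.1 CPM naive, and the ranges overlapped at both days (log2 fold changes -0.38 and -0.37). Calcoco1, an ER-phagy receptor, fell at day 21 in both genotypes, with 41.8, 45.4, 38.02 and 47.3 CPM in day 21 KO against 66.4, 66.5, 60.6 and 47.8 CPM in naive KO (log2 fold change -0.49, SE 0.10, edgeR adjusted p = 0.000387) and 49.7, 48.8 and 48.9 CPM in day 21 WT against 65.9, 64.03, 51.6 and 62.3 CPM in naive WT libraries (log2 fold change -0.31, SE 0.11, edgeR adjusted p = 0.0476). The WT call was lost in 18 of 30 fits that left out 1 library (adjusted p up to 0.164) and with every alternative setting but DESeq2. Tollip, an adaptor that binds ubiquitin, fell at day 35, to 43.5, 52.4, 39.6 and 39.6 CPM in KO, against 57.4, 58.3, 58.9 and 47.95 CPM in naive KO (log2 fold change -0.35, SE 0.11, edgeR adjusted p = 0.0236), and to 45.05, 40.6, 48.4 and 49.9 CPM in WT, against 57.6, 63.1, 58.3 and 55.7 CPM in naive WT libraries (log2 fold change -0.35, SE 0.11, edgeR adjusted p = 0.0261). Sqstm1 rose in KO at day 35, with 225.7, 234.9, 256.8 and 202.8 CPM against 220.1, 202.04, 157.4 and 161.6 CPM in naive KO libraries, which overlapped (log2 fold change 0.31, SE 0.11, edgeR adjusted p = 0.037). Optn rose there as well, to 19.8, 24.3, 23.4 and 26.9 CPM, against 15.4, 14.2, 12.2 and 7.19 CPM in naive KO libraries (log2 fold change 0.94, SE 0.33, edgeR adjusted p = 0.0465). Its call was lost in 22 of 30 fits that left out 1 library (adjusted p up to 0.124), and that of Sqstm1 without day 35 KO 1, day 35 KO 2, day 35 KO 3, naive KO 3 or naive KO 4 (up to 0.139). Optn also passed as higher in KO at day 21, with means of 22.87 CPM in day 21 KO and 12.26 CPM in naive KO libraries. Tollip passed as lower in that comparison, with means of 43.87 and 55.65 CPM.

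The mitophagy genes Pink1, Bnip3l and Fundc1 passed the test as lower in each comparison but that of KO at day 35. Bnip3 passed in none of the 5. Pink1 had 23.6, 22.1, 21.8 and 20.3 CPM in day 21 KO and 38.3, 47.3, 44.1 and 37.5 CPM in naive KO libraries (log2 fold change -0.93, SE 0.14, edgeR adjusted p = 4.58e-06). In WT it had 29.98, 29.1 and 29.8 CPM at day 21 and 30.3, 29.97, 41.6 and 37.2 CPM at day 35, against 51.3, 46.7, 39.9 and 50.04 CPM naive (log2 fold changes -0.66 and -0.43). In old libraries it had 27.8, 45.3 and 30.5 CPM at day 35 and 56.9, 45.04, 48.4 and 47.2 CPM naive, which overlapped (log2 fold change -0.51, SE 0.15, edgeR adjusted p = 0.0183). That call was lost without day 35 old 1 (adjusted p = 0.0871), day 35 old 3 or naive old 1. Day 21 libraries of both genotypes lay below all naive ones. Bnip3l had 41.5, 31.7, 32.5 and 40.3 CPM in day 21 KO and 66.8, 61.8, 51.98 and 45.2 CPM in naive KO libraries (log2 fold change -0.63, SE 0.15, edgeR adjusted p = 0.00131), and 67.7, 55.9 and 37.2 CPM in day 35 old and 75.96, 93.9, 79.7 and 72.7 CPM in naive old libraries (log2 fold change -0.59, SE 0.16, edgeR adjusted p = 0.0139). In WT it had 42.9, 44.4 and 44.6 CPM at day 21 and 36.5, 38.9, 51.5 and 45.9 CPM at day 35, against 58.4, 66.6, 69.2 and 56.5 CPM naive (log2 fold changes -0.51 and -0.54). No EAE library of these groups overlapped its naive group for Bnip3l. Fundc1 had 16.96, 22.8, 23.3 and 20.7 CPM in day 21 KO and 31.9, 30.5, 27.8 and 26.5 CPM in naive KO libraries (log2 fold change -0.48, SE 0.14, edgeR adjusted p = 0.00549), and 18.99, 30.95 and 26.8 CPM in day 35 old and 41.7, 49.4, 42.95 and 34.95 CPM in naive old libraries (log2 fold change -0.72, SE 0.15, edgeR adjusted p = 0.00172). In WT it had 22.8, 24.5 and 25.4 CPM at day 21 and 24.3, 20.2, 23.01 and 27.6 CPM at day 35, against 34.3, 33.8, 28.1 and 34.2 CPM naive (log2 fold changes -0.43 and -0.45). Fundc1 was lower in each of these EAE libraries than in its naive group. In KO at day 35, where these genes did not pass, their means were also below naive and libraries overlapped. Pink1 had means of 35.47 CPM in day 35 KO and 41.82 CPM in naive KO libraries, Bnip3l 47.99 and 56.43 CPM, and Fundc1 24.99 and 29.17 CPM.

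Among the fusion genes, Epg5 had 74.6, 77.5, 84.4 and 81.8 CPM in day 21 KO and 47.7, 54.8, 64.6 and 59.2 CPM in naive KO libraries (log2 fold change 0.49, SE 0.11, edgeR adjusted p = 0.000585). It had 79.7, 58.7 and 70.3 CPM in day 35 old and 54.6, 47.2, 59.7 and 52.1 CPM in naive old libraries, which overlapped (log2 fold change 0.38, SE 0.12, edgeR adjusted p = 0.0254). That call was lost without day 35 old 1 (adjusted p = 0.128), day 35 old 3 or naive old 2. In WT it had 77.9, 71.9 and 71.2 CPM at day 21 and 78.2, 60.7, 71.1 and 58.7 CPM at day 35, against 52.6, 53.01, 58.9 and 48.6 CPM naive (log2 fold changes 0.47 and 0.33), with overlap at day 35 only. The HOPS subunit Vps41 rose in KO, with 70.7, 82.7, 75.9 and 76.2 CPM at day 21 and 76.2, 76.1, 68.9 and 71.6 CPM at day 35, against 64.4, 64.5, 67.2 and 58.5 CPM naive (log2 fold changes 0.26 and 0.20). In WT it rose at day 35, with 80.1, 91.4, 82.5 and 80.5 CPM against 67.2, 64.7, 70.3 and 65.1 CPM in naive WT libraries (log2 fold change 0.32, SE 0.072, edgeR adjusted p = 0.00309). None of these groups overlapped its naive group. Vps16, another HOPS subunit, had 67.99, 54.2, 57.8 and 59.3 CPM in day 21 KO and 40.5, 41.9, 34.7 and 43.7 CPM in naive KO libraries (log2 fold change 0.57, SE 0.11, edgeR adjusted p = 0.00015), and 45.2, 44.6 and 53.4 CPM in day 35 old and 41.8, 34.3, 38.1 and 34.1 CPM in naive old libraries (log2 fold change 0.36, SE 0.12, edgeR adjusted p = 0.0376). Pced1a, which overlaps Vps16 on the other strand, had group means of 14 to 25 CPM. The SNARE Snap29 fell in old libraries, with 50.2, 55.6 and 47.2 CPM at day 35 and 74.3, 74.2, 65.9 and 53.5 CPM naive, which overlapped (log2 fold change -0.39, SE 0.13, edgeR adjusted p = 0.0334), a call lost without day 35 old 1 (adjusted p = 0.062), day 35 old 3, naive old 1 or naive old 2. Stx17 passed in KO at day 21, with 37.8, 41.6, 45.4 and 49.9 CPM against 37.6, 37.4, 34.6 and 29.9 CPM in naive KO libraries (log2 fold change 0.32, SE 0.12, edgeR adjusted p = 0.0288).

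**Figure D4:**
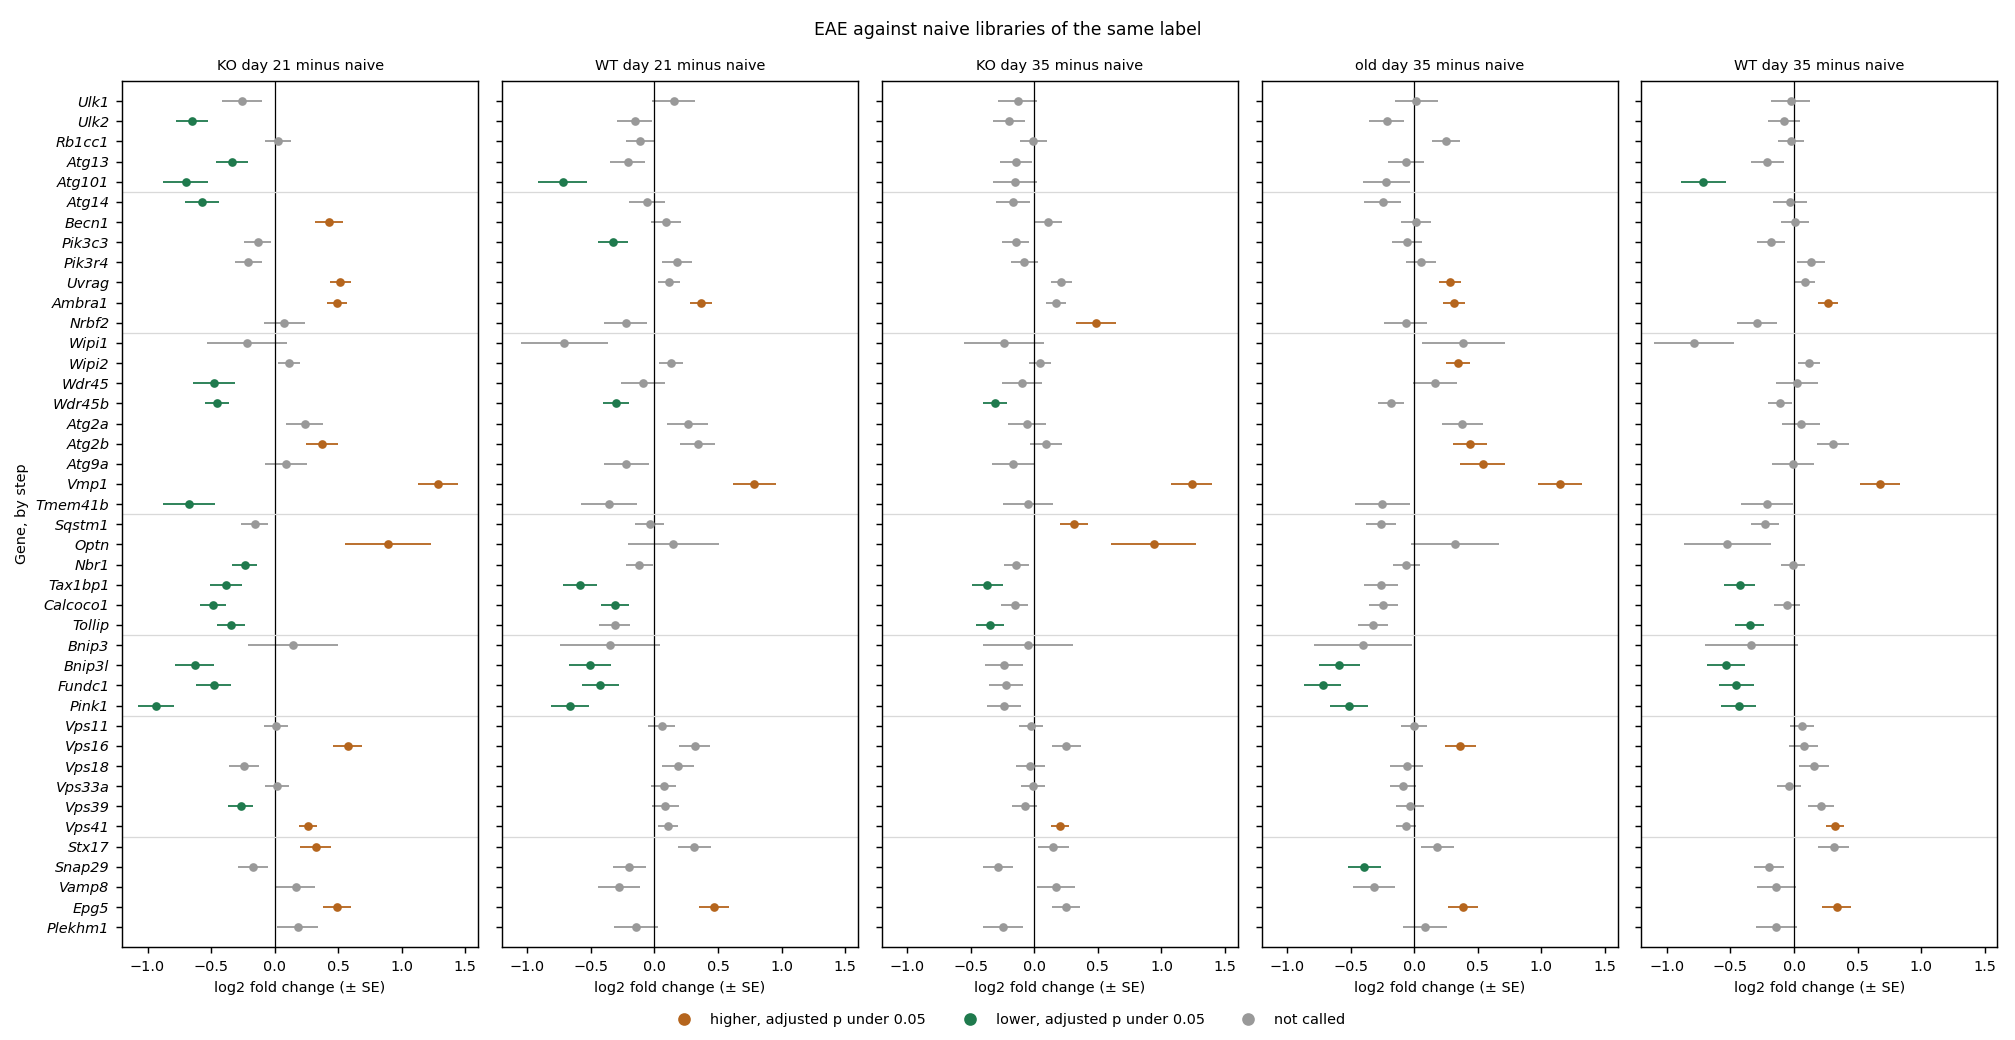
Log2 fold change of each member, EAE minus naive, with bars of its SE, in KO at days 21 and 35, old at day 35 and WT at days 21 and 35. Brown points passed the test as higher and green points as lower, and grey points did not pass. Vmp1 lies to the right in all 5 panels, and Pink1, Bnip3l, Fundc1 and Tax1bp1 to the left where they passed.

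Leaving out 1 library at a time kept 15 of the 16 described calls in KO at day 21, 1 of 8 in KO at day 35, 2 of 12 in old at day 35, 5 of 11 in WT at day 21 and 3 of 10 in WT at day 35. In KO at day 21 only Atg2b among the described calls was lost, and in KO at day 35 only Vmp1 was kept. In old libraries Fundc1 was kept besides Vmp1. Besides Vmp1, WT libraries kept Ambra1, Epg5, Pink1 and Tax1bp1 at day 21 and Vps41 and Atg101 at day 35. Leaving out naive KO 4 moved none of these counts by over 1.5 times, but other libraries did. In KO at day 35 the 8 calls became 2 without naive KO 1, 3 without naive KO 2, naive KO 3, day 35 KO 2 or day 35 KO 4, 4 without day 35 KO 3 and 5 without day 35 KO 1. In old at day 35 the 12 became 3 without day 35 old 3 and 7 without naive old 2. In WT at day 21 the 11 became 5 without day 21 WT 1, 6 without day 21 WT 2, day 21 WT 3 or naive WT 2, and 7 without day 35 WT 4. In WT at day 35 the 10 became 4 without day 35 WT 1 and 6 without day 35 WT 2, naive WT 2 or naive WT 4.

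Marker levels moved with EAE as well. Microglia markers summed to 9123 to 9712 CPM in day 21 KO, 11624 to 17623 CPM in day 35 KO and 22208 to 23626 CPM in naive KO libraries. They summed to 8483 to 21239 CPM in day 35 old and 22356 to 24582 CPM in naive old libraries. In WT libraries they summed to 16712 to 18957 CPM in day 21 WT, 15489 to 23096 CPM in day 35 WT and 18664 to 28603 CPM in naive WT libraries. Monocyte markers summed to 2088 to 2875 CPM in day 21 KO, 957 to 1369 CPM in day 35 KO and 29.9 to 441 CPM in naive KO libraries. They summed to 452 to 4563 CPM in day 35 old and 815 to 1275 CPM in naive old libraries. In WT libraries they summed to 175 to 476 CPM in day 21 WT, 98.9 to 292 CPM in day 35 WT and 131.7 to 1763 CPM in naive WT libraries. Monocyte markers were above naive without overlap in KO libraries at both days, and overlapped with naive in old and WT libraries. Border macrophage markers summed to 229 to 305 CPM in day 21 KO, 24.1 to 78.6 CPM in day 35 KO and 27.4 to 290 CPM in naive KO libraries. They summed to 19.5 to 357 CPM in day 35 old and 283 to 365 CPM in naive old libraries. In WT libraries they summed to 14.3 to 63.6 CPM in day 21 WT, 9.39 to 84.9 CPM in day 35 WT and 264 to 388 CPM in naive WT libraries. Neutrophil markers summed to 482 to 604 CPM in day 21 KO, 667 to 3841 CPM in day 35 KO and 638 to 3064 CPM in naive KO libraries. They summed to 690 to 32193 CPM in day 35 old and 7417 to 13672 CPM in naive old libraries. In WT libraries they summed to 699 to 725 CPM in day 21 WT, 599 to 810 CPM in day 35 WT and 2011 to 16779 CPM in naive WT libraries. Median mitochondrial shares were 8.8% in day 21 KO, 8.01% in day 35 KO, 8.62% in day 35 old, 7.98% in day 21 WT and 5.38% in day 35 WT libraries, against 3.1% in naive KO, 4.22% in naive old and 2.93% in naive WT libraries. Naive WT 3 had a share of 6.73%, where day 21 WT libraries had 6.41 to 8.26% and day 35 WT libraries 4.48 to 6.08%. The part of these marker levels and shares in the EAE results was not tested.

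The other autophagy lists are read against 45.2% of all genes called in KO at day 21 and 21.5% in WT at day 21. Of the 17 further receptors and late-step genes, 2 were higher and 8 lower in KO at day 21, and 0 higher and 6 lower in WT at day 21. The ER-phagy receptor Rtn3 fell in both (log2 fold changes -0.62 and -0.55), as did Sec62 (-0.98 and -0.51). Of the 20 upstream regulators, 4 were higher and 8 lower in KO at day 21 and 2 higher and 5 lower in WT at day 21, with Prkab1 lower in both (-1.06 and -0.66). The transcription factor Foxo3 (-0.68 in KO and -0.32 in WT) and the AMPK subunit Prkag1 (-0.50 and -0.87) were also lower in both, and Mtor, the nutrient-sensing kinase that restrains ULK1, was higher in both (0.45 and 0.45). The conjugation genes held 3 higher and 3 lower of 16 in KO at day 21, and 1 higher and 3 lower in WT at day 21.

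Between the EAE days, KO and WT libraries gave unlike counts. In KO, 7 members were higher and 4 lower at day 35 than at day 21 (24.9% of all genes passed, 13.3% higher and 11.7% lower). In WT, 0 were (0.0648% of all genes, 0.00720% higher and 0.0576% lower); edgeR gave 2 an unadjusted p under 0.05 and DESeq2 called 0. Pink1 had 36.7, 34.4, 41.96 and 28.8 CPM in day 35 KO, against 23.6, 22.1, 21.8 and 20.3 CPM in day 21 KO libraries (log2 fold change 0.69, SE 0.14, edgeR adjusted p = 0.000681). Sqstm1 had 225.7, 234.9, 256.8 and 202.8 CPM in day 35 KO and 178.1, 177.5, 153.6 and 155.1 CPM in day 21 KO libraries (log2 fold change 0.47, SE 0.11, edgeR adjusted p = 0.00207), and Ulk2 had 225.2, 210.7, 210.2 and 180.5 CPM in day 35 KO and 150.7, 144.9, 143.8 and 163.9 CPM in day 21 KO libraries (log2 fold change 0.45, SE 0.13, edgeR adjusted p = 0.0094). In all 3 the day 35 libraries lay above the day 21 ones.

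Calcoco1 (0.33), Atg101 (0.55), the scramblase Tmem41b (0.62) and Atg14 (0.41) were also higher on the log2 scale at day 35. Tmem41b had 12.3, 14.4, 9.01 and 12.5 CPM in day 35 KO and 9.74, 9.09, 8.26 and 4.3 CPM in day 21 KO libraries (edgeR adjusted p = 0.0277). Lower at day 35 were Ambra1, with 98.3, 104.4, 98.4 and 99.4 CPM in day 35 KO and 135.2, 120.6, 111.2 and 132.01 CPM in day 21 KO libraries (log2 fold change -0.32, SE 0.079, edgeR adjusted p = 0.00413), Uvrag (-0.30), Becn1 (-0.32) and Vps16 (-0.32). Day 21 and day 35 KO libraries overlapped for Calcoco1, Tmem41b, Atg14, Becn1 and Vps16, and not for the other members called. Only the Sqstm1 change differed between KO and WT beyond the test's threshold among the 42, as given above. The day 21 KO libraries had 2088 to 2875 CPM of monocyte markers and the day 35 KO libraries 957 to 1369 CPM, and the part of this in the changes was not tested. Of the 11 calls, 5 (Pink1, Sqstm1, Ulk2, Ambra1 and Uvrag) held in every fit that left out 1 library; the count became 6 without day 35 KO 1 and 7 without day 21 KO 1 or day 35 KO 2.

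In old mice the cargo receptor Sqstm1 was higher than in young WT mice in both naive and day 35 libraries. The old and KO comparisons at one time share the same WT libraries. Naive old libraries had 2 members higher and 0 lower than naive WT (8.18% of all genes passed, 5.03% higher and 3.15% lower). Sqstm1 had 292.5, 253.2, 241.2 and 225.1 CPM in naive old and 200.4, 183.9, 184.2 and 181.9 CPM in naive WT libraries, without overlap (log2 fold change 0.43, SE 0.11, edgeR adjusted p = 0.0122). Vps41 had 83.6, 77.99, 83.96 and 80.6 CPM in naive old and 67.2, 64.7, 70.3 and 65.1 CPM in naive WT libraries, also without overlap (log2 fold change 0.29, SE 0.072, edgeR adjusted p = 0.0131). Ulk1 (0.032), Becn1 (0.16), Atg9a (-0.30), Bnip3 (0.34) and Stx17 (0.15) did not pass. Each of the other lists held 1 higher gene and 0 lower: Gabarap (0.56), the mTORC1 regulator Rragc (0.39) and Bcl2 (0.86). Sqstm1 lost its call without naive old 1 (adjusted p = 0.0659) and Vps41 without naive WT 4 (adjusted p = 0.0519). The count became 4 without naive old 4 and 5 without day 35 old 1, when Optn (0.72) and Fundc1 (0.38) were higher and Rb1cc1 (-0.31), the ULK1 scaffold, lower.

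At day 35, 3 members were higher and 0 lower in old than in WT libraries (9.45% of all genes passed, 7.51% higher and 1.94% lower). Optn had 72.3, 18.04 and 18.4 CPM in day 35 old and 12.9, 13.2, 10.3 and 11.98 CPM in day 35 WT libraries (log2 fold change 1.57, SE 0.36, edgeR adjusted p = 0.0112). Sqstm1 had 229.96, 193.04 and 210.03 CPM in day 35 old and 168.7, 151.99, 162.3 and 157.2 CPM in day 35 WT libraries (log2 fold change 0.40, SE 0.12, edgeR adjusted p = 0.0285). Both groups were separate for these genes, though Optn in day 35 old 1 was far above the other old libraries. Wipi1 had 44.4, 12.1 and 10.4 CPM in day 35 old and 7.15, 11.3, 9.55 and 12.99 CPM in day 35 WT libraries, which overlapped (log2 fold change 1.11, SE 0.33, edgeR adjusted p = 0.0349). Without day 35 old 1, 0 members and 0 genes passed: Optn came to 0.59 (adjusted p = 0.471), Sqstm1 to 0.33 (0.426) and Wipi1 to 0.14 (0.892). Leaving out day 35 WT 2 gave 1 call, and leaving out day 35 old 2 or day 35 old 3 gave 5.

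Neutrophil markers summed to 32193 CPM in day 35 old 1, 690 and 2466 CPM in the other day 35 old libraries and 599 to 810 CPM in day 35 WT libraries, which overlapped. Monocyte markers summed to 452 to 4563 CPM in day 35 old and 98.9 to 292 CPM in day 35 WT libraries. Disease scores were 2.75 to 3 in day 35 old and 1 to 1.5 in day 35 WT mice, and mitochondrial shares 7.31 to 8.85% in old and 4.48 to 6.08% in WT libraries. Monocyte sums, scores and mitochondrial shares did not overlap. The part of these differences, neutrophil markers included, in the Optn, Sqstm1 and Wipi1 results was not tested. Ulk1 (0.075), Becn1 (0.16), Atg9a (0.25), Bnip3 (0.27) and Stx17 (0.021) did not pass. Of the other lists, conjugation genes held 2 higher and 0 lower, upstream regulators 1 higher and 2 lower, and further receptors and late-step genes 1 higher and 0 lower; Gabarap (0.48) and the late endosome GTPase Rab7 (0.53) had the lowest adjusted p. For the old minus WT difference in the change from naive to day 35, 0 members passed the test (0.0432% of all genes passed, 0.0216% in each direction); edgeR gave 3 members an unadjusted p under 0.05 and DESeq2 called 1, Vps41. Without day 35 old 3 the count was 1.

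**Figure D5:**
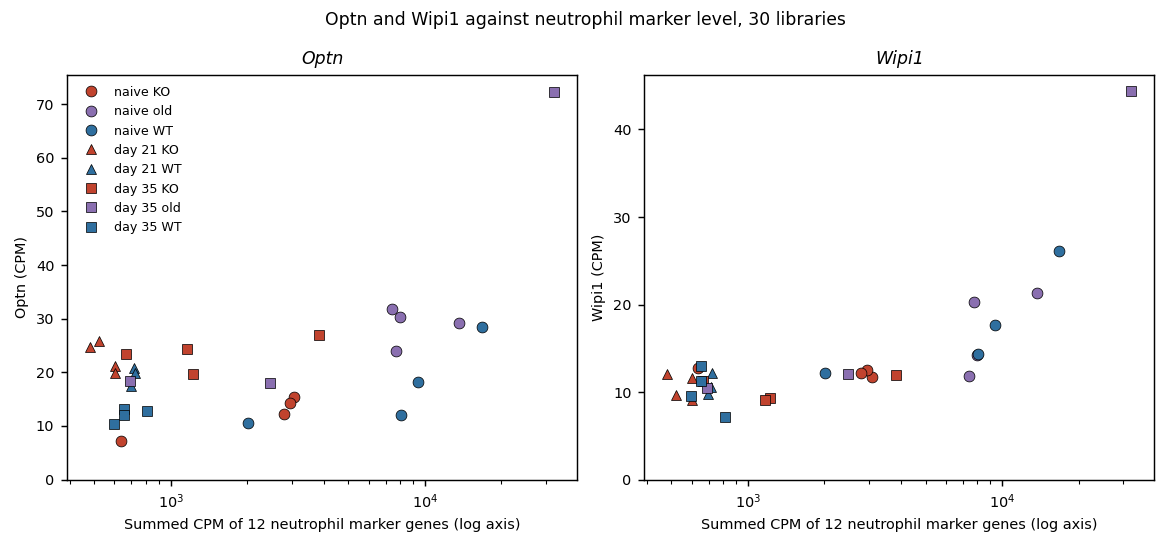
CPM of Optn and Wipi1 (vertical axes) against the summed CPM of 12 neutrophil markers (horizontal log axis) in the 30 libraries, coloured by group. Day 35 old 1 is at the upper right of both panels, with 32193 CPM of neutrophil markers.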

How the data were processed

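The authors' deposited table holds whole-number counts of reads per Ensembl gene. The submitters' processing notes name CASAVA, bcl2fastq, STAR and GRCm38; for versions, the counter and the strand setting, the sources used here give nothing. The table has 32 count columns: 30 were joined to the libraries through the plate wells in the labels, which matched the group in the title for 30 of 30, and 2 were not used. Per the labels, libraries were made with a SMARTer stranded Pico total RNA kit, and each has a deposited EAE score and an RNA integrity number of 8.5 to 10. Symbols, lengths and overlaps came from GENCODE M21, and promoters from RefSeq.

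Genes with at least 10 counts in enough libraries and 15 in all (edgeR filterByExpr) were kept. One edgeR 4.0.16 quasi-likelihood fit (R 4.3.3, limma 3.58.1, robust, TMM factors 0.906 to 1.097) covered all 30 libraries, modelled a mean for each group (22 residual degrees of freedom), and 16 contrasts were tested. A gene passed the test at a Benjamini-Hochberg adjusted p under 0.05 over all 13880 genes. CPM are counts scaled to a library size of 1e+06 with TMM factors. SE is that of the log2 fold change, and errors cover the spread between libraries. The pipeline was tested on simulated data. The alternatives were DESeq2 1.42.0, RLE size factors, no filter, only the groups compared, the i5 index as a block, day 35 WT 3 moved to KO, and leaving out each library.

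The labels give no replicate numbers, so libraries were numbered within groups. Libraries that share an i5 index did not deviate together: the median correlation over 98 pairs was -0.0064. Members and lists were chosen with earlier results of these data known. Any member could be named. Values per library were given for called members, at most 8 in each direction of a comparison by adjusted p. Between day 21 and day 35 in KO, Calcoco1, Atg101, Atg14, Uvrag, Becn1 and Vps16 were given by log2 fold change only. Ulk1, Becn1, Atg9a, Sqstm1, Bnip3 and Stx17 were named beside these, with up to 4 genes of the other lists.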

Additional observations from a re-analysis of the deposited data

Results flagged for a closer look

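In groups of 4 libraries, 1 library lay far from the other 3 in 15 of 252 tests (5.95%), where chance gives about 5%. In naive KO these were Ulk2 in KO 4 (218 CPM), Tollip in KO 4 (48.0 CPM), Rb1cc1 in KO 2 (88.7 CPM) and Ambra1 in KO 1 (83.0 CPM). In day 21 KO they were Atg14 in KO 4 (19.9 CPM) and Atg2b in KO 1 (94.8 CPM), and in day 35 KO Uvrag in KO 4 (85.4 CPM) and Vps16 in KO 3 (57.3 CPM). In naive old they were Nrbf2 in old 4 (15.2 CPM) and Bnip3 in old 4 (1.40 CPM). In naive WT they were Atg13 in WT 4 (20.8 CPM), Atg9a in WT 4 (19.2 CPM), Sqstm1 in WT 1 (200.4 CPM) and Fundc1 in WT 3 (28.1 CPM). In day 35 WT, Tax1bp1 in WT 1 had 137.7 CPM.

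The KO minus WT difference changed between times in 2 members. Uvrag's change from naive to day 21 was larger in KO than in WT libraries by 0.40 on the log2 scale (edgeR adjusted p = 0.0336). Sqstm1's change from day 21 to day 35 was larger in KO than in WT libraries by 0.66 (edgeR adjusted p = 0.0206).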

How the results depend on the processing

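RLE size factors moved no count of members called by over 1.5 times. Leaving out 1 library at a time gave, for KO minus WT, 0 to 0 calls in naive, 0 to 6 at day 21 and 0 to 2 at day 35. It gave 20 to 26 for KO day 21 minus naive, 2 to 9 for KO day 35 minus naive, 6 to 13 for KO day 35 minus day 21, 5 to 14 for WT day 21 minus naive, 4 to 12 for WT day 35 minus naive and 0 to 0 for WT day 35 minus day 21. For old the ranges were 1 to 5 (naive, against WT), 0 to 5 (day 35, against WT) and 3 to 13 (day 35 minus naive). The interactions ranged over 0 to 3 (KO minus WT, day 21 minus naive), 0 to 3 (day 35 minus naive), 0 to 1 (day 35 minus day 21) and 0 to 1 (old minus WT). With DESeq2, KO minus WT gave 2 at day 35, its interaction of day 35 minus naive 3, naive old minus WT 4 and the old interaction 1.

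Without the filter on low counts, KO minus WT gave 2 at day 21, WT 7 at day 21 and 5 at day 35 against naive, KO 3 at day 35 against naive and 5 against day 21, old minus WT 1 naive and 1 at day 35, old day 35 minus naive 6, and the day 21 interaction 0. With only the groups compared, KO minus WT gave 13 at day 21 and 2 at day 35, old minus WT 1 naive and 0 at day 35, old day 35 minus naive 1, and the KO interactions 4 (day 21 minus naive) and 2 (day 35 minus day 21). With day 35 WT 3 moved to KO, KO minus WT gave 0 at day 35, KO day 35 minus naive 5, old minus WT at day 35 1, and the interaction of day 35 minus day 21 0. The replicate block on the i5 index, which does not pair the libraries, gave 3 calls for KO minus WT at day 21, 1 at day 35, 25 for KO day 21 minus naive and 0 for the day 21 interaction. The cause of these shifts was not tested.

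Only log2 fold changes of uncalled members changed sign. Without the filter, naive KO minus WT was 0.013 for Sqstm1 and 0.025 for Bnip3, and with the block 0.004 for Bnip3. With day 35 WT 3 moved, Becn1 was -0.0096 (KO minus WT) and Stx17 -0.033 (old minus WT). Leaving out 1 library gave, in naive KO minus WT, -0.051 to 0.0997 for Atg9a, -0.11 to 0.053 for Sqstm1 and -0.12 to 0.089 for Bnip3. In day 35 KO minus WT it gave -0.046 to 0.13 for Ulk1 and -0.017 to 0.12 for Becn1. In old minus WT it gave -0.0995 to 0.12 for Ulk1 (naive), and at day 35 -0.015 to 0.16 for Ulk1, -0.052 to 0.26 for Becn1, -0.045 to 0.43 for Atg9a and -0.16 to 0.15 for Stx17. Depth limits the low genes most: Bnip3 had the lowest member total, 1255 counts over all libraries.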
